A study of Mus musculus with 12 samples.

Results

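Immunoglobulin heavy variable (Ighv) segments are the gene pieces that encode most of the variable domain of an antibody heavy chain. The rows of the deposited table of counts per gene whose Entrez gene ID mapped to a mouse symbol starting with Ighv were taken, which gave 120 segments of 27179 genes. They fell into 16 V families, where a family is the number that follows Ighv in the symbol. All lay on the minus strand of the heavy chain locus on chromosome 12 (GRCm38, chr12:113578504-116009954). The annotation that gave the symbols holds 183 genes with a symbol starting with Ighv. Those absent from the count table do not enter the shares, family sizes and evenness below.

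During B cell development the RAG recombinase joins a V segment to a D and a J segment on the same chromosome, so that a B cell carries a productive heavy chain built on a single V segment. The joined exon is spliced to a constant gene, first Ighm and Ighd, and after class switching to an Ighg, Igha or Ighe gene. The count of a segment over a population therefore sums over the cells that use it and the heavy chain RNA each of them holds. In these bulk libraries fewer cells that use a segment and less RNA per cell cannot be told apart, and a rearranged V exon cannot be told from an unrearranged transcript.

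RNA-Seq was done on splenic B cells of mice that the labels give as C57BL/6 and the study's methods as males aged 6 to 12 weeks on C57BL/6 Pep3b, as 12 libraries, 2 biological replicates for each of 6 stages. Naive B cells were sorted directly from spleen with a gate that took B220+ cells with IgM and high IgD and left out TCRβ+ cells, so cells already carrying switched receptors were gated out. The other stages came from B cells isolated by negative selection and stimulated in culture with 25 μg/ml lipopolysaccharide (LPS), a bacterial ligand that activates B cells without T cell help. Undivided cells (TCRβ-, CD69+ and with the brightest dye label) were sorted 3, 10 and 33 h after LPS, and on day 4 a CD22+CD138- gate gave the expanded B cells and a CD22-CD138+ gate the plasmablasts. The naive cells were thus isolated by another route than the cells that were cultured. By the study's methods the day 4 cultures were also kept at a lower cell density than those of the undivided cells. Culture density and the step to day 4 therefore cannot be told apart here. Which mice gave which replicate is not given in the sources used here, and p-values measure the spread between these libraries.

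Total counts per library ran from 23026619 to 60585587, of which 17917 to 448057 were in Ighv segments. The B cell genes Ms4a1, Cd79a, Cd79b, Cd22 and Pax5 were above 0 in every library. Summed erythroid markers were 146 to 196 CPM (counts scaled to the depth of the library) in naive libraries and at most 2.11 CPM elsewhere, and summed myeloid markers were 121 to 275 CPM in naive libraries and 0.341 to 37.5 CPM elsewhere. T cell markers summed to 62.9 to 67.2 CPM in naive libraries and 13.9 to 38.8 CPM elsewhere. The part of these other cells in the naive values below was not tested. Of the 120 segments, 97 had over 3 counts in every library, and 3 (Ighv16-1, Ighv13-1 and Ighv1-62-1) had none in any, which allows each up to 0.0167% of Ighv counts in the shallowest library if 3 counts are taken as the limit that a count of 0 allows, for counting error only. GENCODE labels 9 of the 120 as pseudogenes, which took 0.0964% to 0.223% of Ighv counts.

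The coding sequences of the segments on which the results turn are given here. They were read from GENCODE vM21 transcripts (GRCm38), minus strand, as the last 300 coding bases of each, and the positions are the spans that RefSeq gives. The capitals run from the codon of the conserved second cysteine, which ends the germline framework, to the last germline base, where a D segment is joined. Ighv1-26 (chr12:114788372-114788665) took the largest share of Ighv counts, and Ighv2-9-1 (chr12:113769857-113770142) gained the most among segments with at least 1% of Ighv counts. Ighv6-6 (chr12:114434788-114435087) gained in share early, though not in level, and again late, and Ighv15-2 (chr12:114564578-114564874) fell in share.
Ighv1-26: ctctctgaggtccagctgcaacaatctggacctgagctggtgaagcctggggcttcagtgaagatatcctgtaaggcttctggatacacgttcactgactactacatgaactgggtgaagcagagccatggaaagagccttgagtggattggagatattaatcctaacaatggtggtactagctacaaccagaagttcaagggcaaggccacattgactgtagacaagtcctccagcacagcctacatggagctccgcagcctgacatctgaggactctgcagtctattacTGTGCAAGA
Ighv2-9-1: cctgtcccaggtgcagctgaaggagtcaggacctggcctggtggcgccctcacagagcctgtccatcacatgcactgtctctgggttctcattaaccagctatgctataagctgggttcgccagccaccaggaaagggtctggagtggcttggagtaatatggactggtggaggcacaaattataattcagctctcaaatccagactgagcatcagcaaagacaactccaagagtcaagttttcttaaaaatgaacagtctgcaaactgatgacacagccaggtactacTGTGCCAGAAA
Ighv6-6: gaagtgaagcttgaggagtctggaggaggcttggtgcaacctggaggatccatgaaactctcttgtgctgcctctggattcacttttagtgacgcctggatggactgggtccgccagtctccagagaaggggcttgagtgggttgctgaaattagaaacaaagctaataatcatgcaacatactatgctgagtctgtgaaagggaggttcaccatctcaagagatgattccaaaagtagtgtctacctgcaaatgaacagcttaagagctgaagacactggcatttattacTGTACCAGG
Ighv15-2: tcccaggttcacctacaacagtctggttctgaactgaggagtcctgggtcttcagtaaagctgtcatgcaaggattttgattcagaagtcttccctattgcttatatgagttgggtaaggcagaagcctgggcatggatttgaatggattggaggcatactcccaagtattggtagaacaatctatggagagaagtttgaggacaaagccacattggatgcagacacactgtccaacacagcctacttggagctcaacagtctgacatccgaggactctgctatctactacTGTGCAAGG

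The letters TGTGCAAGA ended 52 of the 120 coding sequences, 50 of the 60 in family 1 and 2 of the 60 in other families. The next pair is printed because it limits what a count can say. Ighv1-72 (chr12:115757984-115758277), known from the response of C57BL/6 mice to nitrophenyl haptens, and Ighv1-62-3 (chr12:115460999-115461431) differed at 3 of 351 coding bases (C56T, T121A and T342C, with the Ighv1-72 base first and positions counted from the start codon).
Ighv1-72: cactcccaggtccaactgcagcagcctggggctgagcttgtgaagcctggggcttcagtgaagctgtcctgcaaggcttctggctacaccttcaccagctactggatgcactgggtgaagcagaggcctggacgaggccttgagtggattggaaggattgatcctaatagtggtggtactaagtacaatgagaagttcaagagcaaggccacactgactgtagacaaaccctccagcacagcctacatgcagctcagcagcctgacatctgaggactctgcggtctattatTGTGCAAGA
Ighv1-62-3: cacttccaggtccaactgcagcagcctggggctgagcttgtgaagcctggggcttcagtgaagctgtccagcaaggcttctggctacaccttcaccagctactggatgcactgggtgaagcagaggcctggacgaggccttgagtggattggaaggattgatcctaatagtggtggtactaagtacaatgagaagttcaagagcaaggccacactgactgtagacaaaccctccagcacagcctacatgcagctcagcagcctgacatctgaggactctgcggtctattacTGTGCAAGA

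Reads were 81 bp, and 36.4% of the 81-base windows of Ighv1-72 occurred in no other Ighv transcript. The share was lower still for Ighv1-62-2 (9.06%) and Ighv1-71 (2.87%), which differed at 1 of 359 coding bases (T8G, with the Ighv1-62-2 base first). For 86 of the 120 segments at least 90% of the windows were unique, and for 49 all were. How reads that fit several segments, or that cross the V-D-J junction, were counted is not given in the sources used here, and counts of near-identical segments are uncertain.

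The summed share of Ighv counts was lower 3 h after LPS than in naive cells, and was highest in plasmablasts. These values are relative to the other RNA of each library and give no amount per cell. Ighv segments took 0.155% and 0.149% of all counts in the 2 naive libraries, 0.0778% and 0.0672% at 3 h, and 0.0999% and 0.0997% at 10 h. The early stages did not overlap with each other or with naive cells. The share was 0.130% and 0.178% at 33 h, which overlapped the naive libraries. The expanded cells of day 4 were at 0.429% and 0.481%, and the plasmablasts at 1.22% and 1.13%, above every earlier library. Scaled between libraries by TMM, edgeR's trimmed-mean method, the mean of the sum was 1711 ± 24.3 CPM (SD, n = 2) in naive cells, 913 ± 112 CPM at 3 h and 15795 ± 537 CPM in plasmablasts. On this scale it fell by 0.91 on the log2 scale from naive to 3 h and rose by 0.68 from 10 to 33 h, 1.57 from 33 h to expanded cells and 1.75 from expanded cells to plasmablasts. From 3 to 10 h it changed by 0.11 on the log2 scale, with pairs of libraries on both sides of 0. Plasmablasts held 9.23-fold the naive sum. No test was made on a sum over segments.

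Ighv counts were also set against the counts of the heavy chain constant genes. There were 16.0 and 15.5 Ighv counts per 100 constant counts in naive libraries and 12.6 in both 3 h libraries. The ratio was 13.8 and 12.8 at 10 h and 15.9 and 17.4 at 33 h. It was 21.7 and 20.2 in expanded cells and 19.6 and 20.4 in plasmablasts, above every library of an earlier stage. Over these stages Ighd fell from 26.4% and 26.2% of constant counts in naive libraries to under 0.1% on day 4, and the Ighg genes took 12.5% and 14.2% in expanded cells.

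The kappa light chain moved apart from the heavy chain in plasmablasts. Kappa variable (Igkv) segments, the light chain counterparts, took 0.247% and 0.252% of counts in naive libraries, and 3.58% and 3.74% in plasmablasts. There were 63.0 and 59.0 Ighv counts per 100 Igkv counts in naive cells, 51.5 and 44.1 at 3 h, and 68.8 and 66.3 in expanded cells. In plasmablasts there were 33.9 and 30.3, lower than in any other library. Igkc, the kappa constant gene, rose by 2.90 ± 0.15 (log2, SE) from expanded cells to plasmablasts, against 1.88 ± 0.13 for Ighm (edgeR glmTreat, adjusted p = 3.57e-08 and 1.09e-06). The lambda constant genes Iglc1, Iglc2 and Iglc3 rose by 1.81 ± 0.10, 1.96 ± 0.10 and 1.67 ± 0.12 at this step, close to Ighm.

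**Figure D1:**
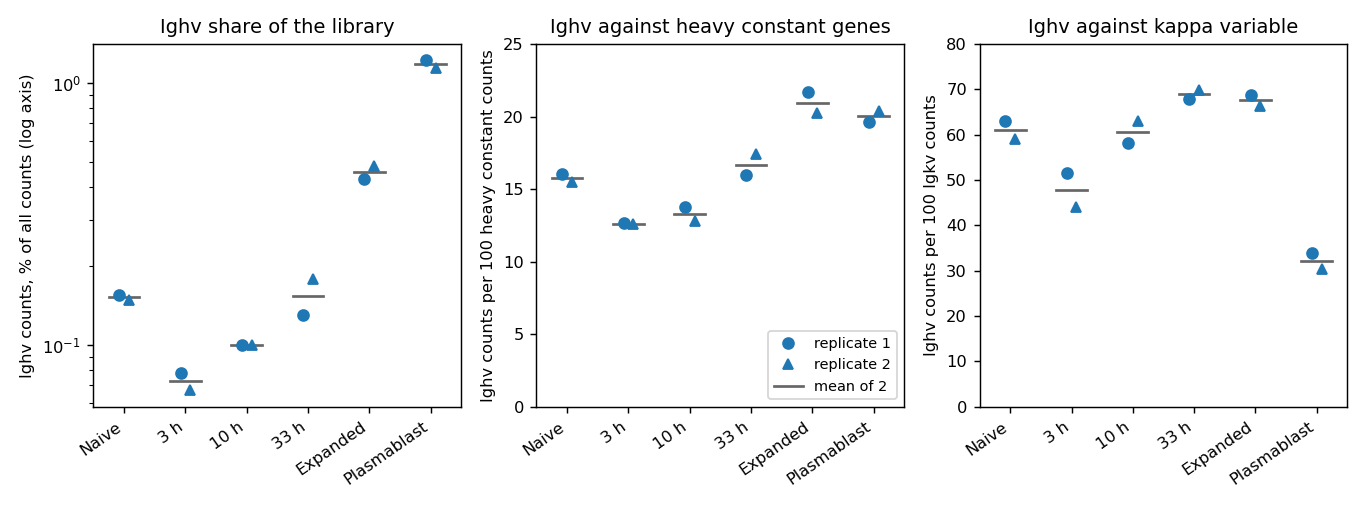
Ighv counts in each library by stage, as a percent of all counts (left, log axis), per 100 counts of heavy constant genes (middle) and per 100 Igkv counts (right). Points are libraries and bars are means of 2. The share was lowest at 3 h, at 0.0778% and 0.0672%, and highest in plasmablasts, and the ratio to Igkv was lowest in plasmablasts, at 33.9 and 30.3.

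Each segment was then tested between consecutive stages in a single fit of all genes. A segment was called where edgeR's glmTreat, which asks whether a change exceeds 1.5-fold, gave a Benjamini-Hochberg adjusted p below 0.05. Of the 120 segments, 110 passed the filter on low counts and were tested among 12982 genes, and the other 10 never exceeded 19 counts in a library. Consecutive comparisons share the libraries of the stage between them.

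From naive cells to 3 h, 53 of the 110 segments fell and 0 rose, against 24.1% of all genes tested that fell and 21.1% that rose. The median log2 fold change of the 110 was -0.95, and that of all genes -0.04. Family 1, the largest, had 37 of its 56 tested segments among the falls, and family 5 had 8 of 9. None of the 3 tested segments of family 6 was called, and their median was 0.00. Without replicate 2 of the 3 h stage, 31 segments were called.

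Ighv1-81 had the largest fall among segments with at least 1% of Ighv counts in a library. It stood at 29.2 and 28.4 CPM in naive libraries and at 9.81 and 8.25 CPM at 3 h, a fall by 1.69 ± 0.16 (log2, SE; adjusted p = 1.12e-05, edgeR glmTreat). Ighv1-4 went from 11.4 and 9.60 CPM to 3.71 and 3.63 CPM (log2 fold change -1.52 ± 0.18; adjusted p = 9.74e-05, edgeR glmTreat). For both, no 3 h library came near a naive library. Ighv2-5 went from 13.0 and 11.0 CPM to 4.54 and 5.04 CPM, a call that was lost when either 3 h library was left out (adjusted p = 0.105 and 0.0920 by edgeR glmTreat).

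Other segments did not pass the test over the same hours. Ighv6-6 was at 13.5 and 12.7 CPM in naive libraries and at 14.1 and 12.3 CPM at 3 h, so that the stages overlapped (log2 fold change 0.00 ± 0.18, and -0.22 with library size alone as the scaling). Ighv6-3 was at 24.8 and 22.1 CPM and then at 22.9 and 19.8 CPM. As the sum of all segments fell, their shares of Ighv counts rose, for Ighv6-6 from 0.783% and 0.751% to 1.42% and 1.48%. Ighv1-26, the leading segment, was at 119 and 111 CPM and then at 78.5 and 60.3 CPM, which did not pass the test (adjusted p = 0.108, edgeR glmTreat). It passed without the filter on low counts and with library size alone as the scaling (adjusted p = 0.0444 and 0.00476, edgeR glmTreat). Tests against no change called it too (adjusted p = 6.72e-06 by DESeq2 and 0.000449 by the edgeR F-test). Without replicate 1 of the 3 h stage the log2 fold change of Ighv1-26 was -0.93, against -0.73 with all libraries.

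From 3 to 10 h, 0 segments rose and 0 fell, against 17.0% and 13.1% of all genes tested. At an unadjusted glmTreat p below 0.05, 1 rose and 0 fell. The F-test of edgeR without a fold threshold called 7 up and 2 down, and DESeq2 called 1 down and 0 up. The median log2 fold change was 0.15 for the segments and 0.02 for all genes.

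From 10 to 33 h, just before division, 9 segments (8.18% of those tested) rose and 0 fell, against 9.87% and 4.49% of all genes. The share of segments that rose was thus close to that of all genes. The F-test without a fold threshold called 61 up and 1 down, and DESeq2 called 52 up. The median log2 fold change of the segments was 0.57, and 99 of 110 had a positive value. The 9 were Ighv2-3, Ighv2-9-1, Ighv5-17, Ighv6-3, Ighv10-1, Ighv10-3, Ighv1-62-2, Ighv1-64 and Ighv1-76. Ighv6-3 went from 20.7 and 19.2 CPM to 36.6 and 59.3 CPM (log2 fold change 1.26 ± 0.18; adjusted p = 0.00329, edgeR glmTreat). Ighv10-1 went from 12.5 and 13.8 CPM to 20.9 and 38.1 CPM. In both, replicate 2 at 33 h was well above replicate 1. The call of Ighv6-3 was kept without any library of either stage, whereas that of Ighv10-1 was lost without either 10 h library or without replicate 2 at 33 h. The count of calls depended on that stage, with 29 segments called without replicate 1 at 33 h and 1 without replicate 2. It was 2 without either 10 h library.

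From 33 h to the expanded cells of day 4, 86 segments rose and 0 fell, against 8.32% and 3.85% of all genes. The median log2 fold change was 1.53, against -0.02 for all genes. The segments did not rise by like amounts. Ighv1-81 had the largest change of the 110, from 11.9 and 16.4 CPM to 110.5 and 131 CPM (3.10 ± 0.15; adjusted p = 1.08e-07, edgeR glmTreat). Ighv1-72 went from 29.6 and 42.0 CPM to 204 and 234 CPM (2.62 ± 0.15; adjusted p = 3.93e-07, edgeR glmTreat). Ighv2-9-1 went from 12.2 and 21.0 CPM to 94.9 and 107 CPM (2.62 ± 0.19; adjusted p = 4.03e-06, edgeR glmTreat). In all 3 segments the expanded libraries were clear of the 33 h libraries, and the counts of Ighv1-72 carry the uncertainty given above.

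At the same step 1 of the 4 tested segments of family 14 was called, and 3 of the 9 tested in family 8. Ighv14-4 was at 10.4 and 10.8 CPM at 33 h and at 15.6 and 18.1 CPM in expanded cells (0.67 ± 0.15; adjusted p = 0.503, edgeR glmTreat). Ighv14-2 was at 17.6 and 24.6 CPM and then at 37.4 and 38.3 CPM (0.85 ± 0.16; adjusted p = 0.117, edgeR glmTreat). Neither passed the test, though in both the expanded libraries were above those of 33 h.

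From expanded cells to plasmablasts, 106 segments rose and 0 fell, against 15.3% and 12.2% of all genes. All 110 tested segments had a positive log2 fold change, from 1.03 to 2.89 with a median of 1.81. The largest rises among segments with at least 1% of Ighv counts in a library were in Ighv14-4, Ighv14-2 and Ighv6-6. Ighv14-4 reached 140 and 102 CPM in plasmablasts (2.85 ± 0.15; adjusted p = 3.7e-08, edgeR glmTreat). Ighv14-2 reached 226 and 189 CPM (2.46 ± 0.16; adjusted p = 2.9e-07, edgeR glmTreat). Ighv6-6 went from 50.3 and 58.0 CPM to 253 and 272 CPM (2.28 ± 0.17; adjusted p = 9.27e-07, edgeR glmTreat). Ighv1-81 went from 110.5 and 131 CPM to 288 and 251 CPM (1.16 ± 0.14; adjusted p = 0.000805, edgeR glmTreat), a call lost with library size alone as the scaling (adjusted p = 0.0885, edgeR glmTreat).

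Between naive cells and plasmablasts, which are compared directly in the same fit, 107 segments rose and 0 fell, against 27.6% and 23.3% of all genes. The median log2 fold change was 3.22, against 0.04 for all genes. Ighv2-9-1 rose from 14.97 and 14.4 CPM to 383 and 408 CPM (4.75 ± 0.20; adjusted p = 1.04e-09, edgeR glmTreat). Ighv2-9 rose from 8.13 and 8.38 CPM to 168 and 183 CPM (4.41 ± 0.19; adjusted p = 5.81e-10, edgeR glmTreat). Ighv1-26 rose from 119 and 111 CPM to 962 and 853 CPM (2.98 ± 0.15; adjusted p = 3.17e-09, edgeR glmTreat). The exceptions to the call were Ighv8-6, Ighv11-1 and Ighv15-2. Ighv15-2 had 189 and 84 counts in naive libraries and 120 and 436 in plasmablasts, and the stages overlapped also after scaling (1.20 ± 0.53; adjusted p = 0.145, edgeR glmTreat). Without replicate 1 of the plasmablasts it was called (adjusted p = 0.0207, edgeR glmTreat).

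**Figure D2:**
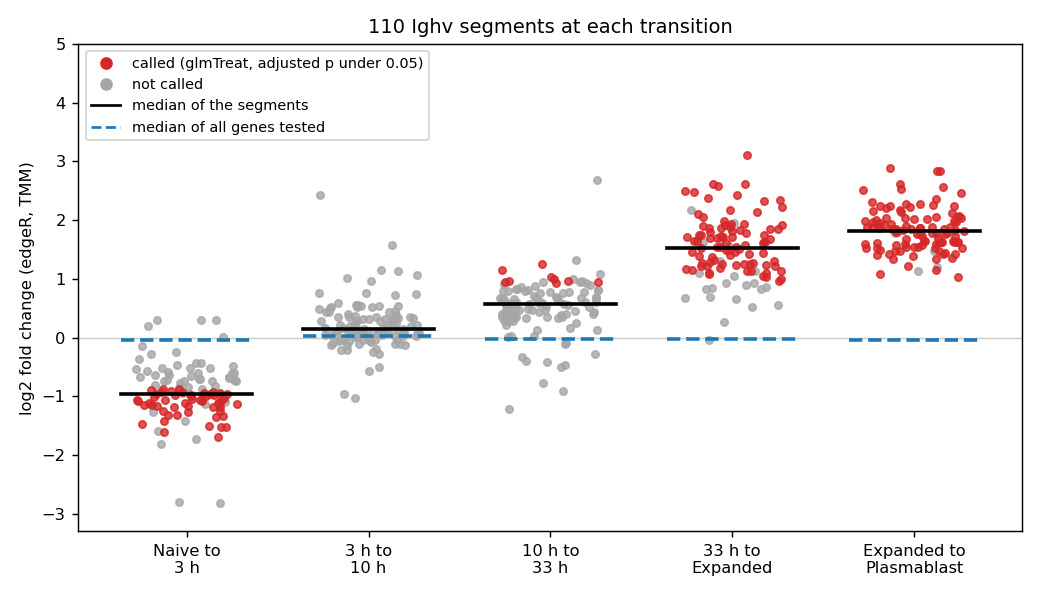
Log2 fold change of the 110 tested Ighv segments at each transition, from the edgeR fit with TMM scaling. Each point is a segment, red where called by glmTreat, with the median of the segments as a black line and that of all 12982 genes tested as a dashed blue line. The points lie mostly below 0 from naive to 3 h (53 called) and all above 0 at the last step (106 called).

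Among the other genes of antibody expression, 32 of the 33 listed were tested. Only Ighe was not. From naive to 3 h 5 rose and 11 fell, where 21.1% of all genes tested rose and 24.1% fell. From 3 to 10 h 9 rose and 7 fell (17.0% and 13.1% of all genes), and from 10 to 33 h 5 rose and 2 fell (9.87% and 4.49%). From 33 h to expanded cells 15 rose and 1 fell (8.32% and 3.85% of all genes), and from expanded cells to plasmablasts 16 rose and 7 fell (15.3% and 12.2%). Over the whole span from naive cells to plasmablasts 19 rose and 8 fell (27.6% and 23.3% of all genes), with a median log2 fold change of 1.65. Ighm, the μ constant gene, changed by -0.43 ± 0.13 (log2, SE) from naive to 3 h, which did not pass the test (adjusted p = 0.897, edgeR glmTreat). From naive cells to plasmablasts Ighm rose by 3.16 ± 0.14 (adjusted p = 1.04e-09, edgeR glmTreat), beside the 3.22 median of the segments. Ighd, the δ constant gene, had a log2 fold change of -9.76 ± 0.37 over the same span. Hnrnpll and Ell2, which act on the processing of heavy chain RNA towards the secreted form, rose by 6.04 ± 0.36 and 4.36 ± 0.25. Pou2af1, the coactivator that binds octamer factors at immunoglobulin promoters, rose by 1.84 ± 0.10, whereas its partner Pou2f2 changed by -0.35 ± 0.10 and did not pass the test.

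Usage, the share of each segment or family among Ighv counts, does not depend on the scaling between libraries. Family 1 was the largest in every library, with 65.4% and 64.2% of Ighv counts in naive libraries and 60.8% and 59.8% in plasmablasts. Its means at the stages between were 61.7%, 61.9%, 62.1% and 63.9%. Family 1 holds 60 of the 120 segments. Among segments with at least 90% unique windows, its mean share was 52.7% in naive cells and 48.0% in plasmablasts, so the direction was the same and the level lower.

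Family 2 gained at each stage in the means. It took 4.92% and 4.90% of Ighv counts in naive libraries, 5.30% and 6.30% at 3 h, 6.03% and 6.06% at 10 h, and 6.31% and 6.88% at 33 h. It took 7.99% and 8.34% in expanded cells and 8.67% and 9.62% in plasmablasts, 1.86-fold the naive mean. All 8 members of family 2 that were above 3 counts in every naive and plasmablast library gained, by 1.11-fold to 2.92-fold in share. Family 10, with 2 segments, took 1.96% and 2.31% in naive libraries and 3.35% and 3.73% in plasmablasts.

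Family 6 followed another course, up at 3 h, lower at 10 h, up at 33 h, down in expanded cells and up again in plasmablasts. It took 2.23% and 2.06% in naive libraries, 3.73% and 3.88% at 3 h and 3.49% and 3.07% by 10 h. It took 4.08% and 4.80% at 33 h, 3.06% in both expanded libraries and 4.21% and 4.40% in plasmablasts. Family 14 took 3.91% and 4.26% in naive libraries, 2.69% and 2.54% in expanded cells and 3.77% and 3.54% in plasmablasts. The expanded libraries were the lowest of all 12 for family 14, and for family 6 they were the lowest after the naive libraries and close to the lower of the 10 h libraries.

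Families 1, 3, 5, 8, 9, 11, 14 and 15 had a lower share in both plasmablast libraries than in either naive library. Family 9 had means of 5.04% and 3.97%, with 2 of 4 members gaining, and of 7.78% and 5.93% among segments with at least 90% unique windows. Family 8 had means of 3.69% and 2.67%, with 3 of 8 members gaining. Among segments with at least 90% unique windows its libraries overlapped, with 2.04% to 2.13% in naive cells and 1.96% to 2.06% in plasmablasts. That choice leaves out Ighv8-8, its largest member, which went from a mean of 2.18% to 1.13%. Family 15, which is Ighv15-2 alone, was at 0.317% and 0.189% in naive libraries and 0.0307% and 0.0973% in plasmablasts. Family 5, whose segments lie near the D segments with those of family 2, had means of 7.43% and 6.83%, and its members were split, with 3 of 9 gaining. Family 3 had means of 4.47% in naive cells, 5.39% at 3 h, 3.78% in expanded cells and 4.16% in plasmablasts. Families 4, 7, 11, 12 and 13 each took under 1% in every library, and family 16 had no counts.

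**Figure D3:**
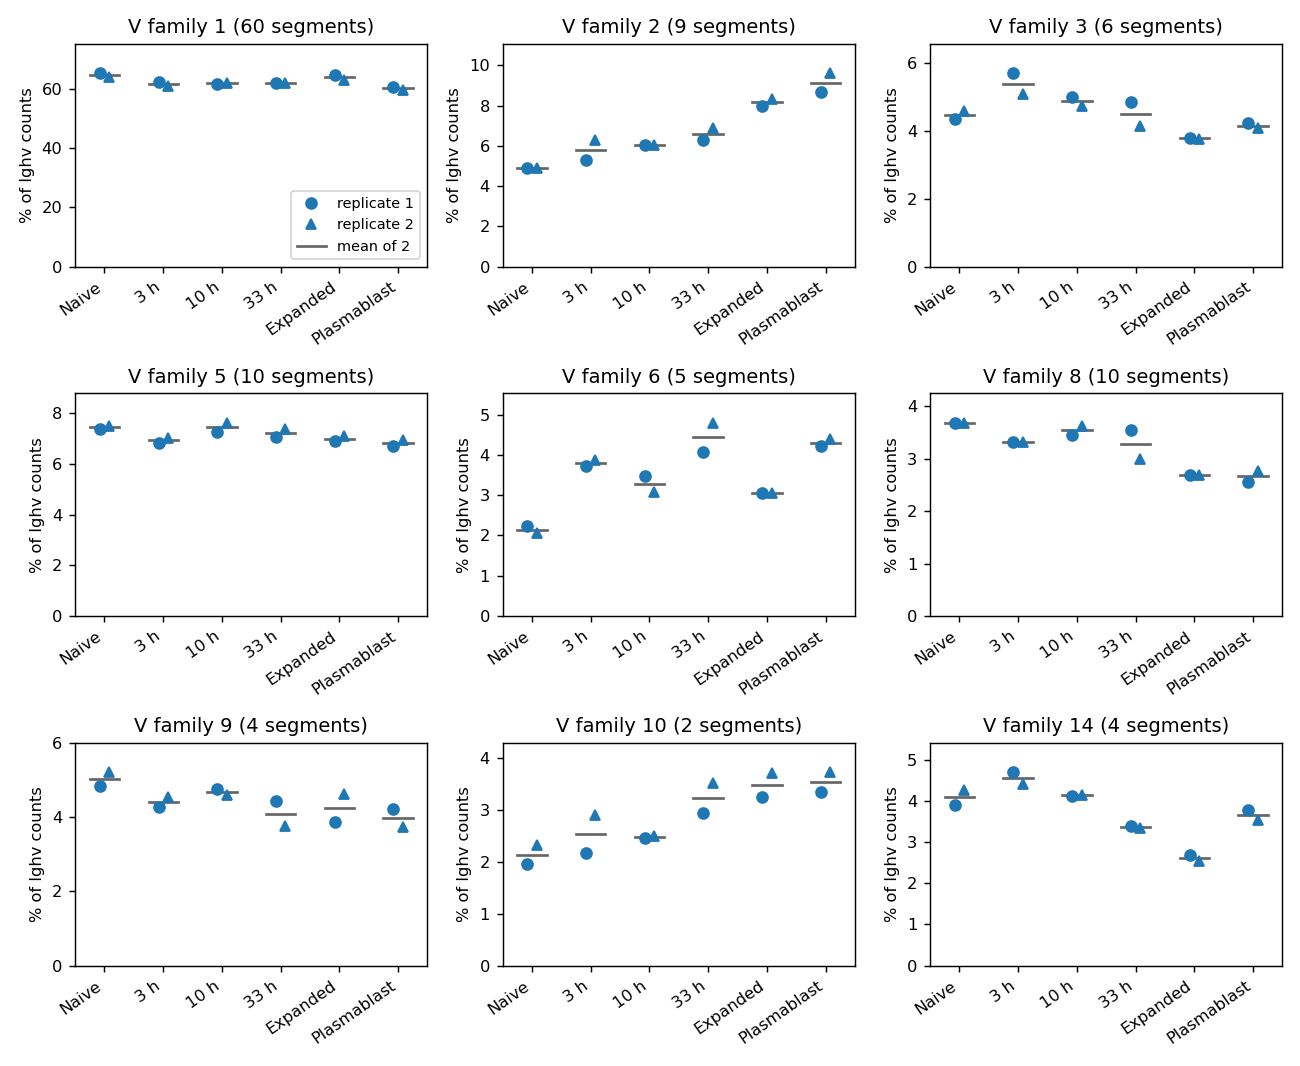
Share of Ighv counts taken by the 9 V families with means above 1%, in each library by stage. Points are libraries and bars are means of 2, and each panel has its own axis from 0. Family 2 went from 4.92% and 4.90% in naive libraries to 8.67% and 9.62% in plasmablasts, and family 14 was lowest in expanded cells.

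Within the families single segments moved further. Of 105 segments above 3 counts in every naive and plasmablast library, the median ratio of the plasmablast share to the naive share was 0.947, with 5 above 2 and 7 below 0.5. Ighv2-9-1 had the highest ratio, 2.92. It took 0.867% and 0.850% of Ighv counts in naive libraries, 0.909% and 1.16% at 33 h, 2.16% and 2.15% in expanded cells and 2.37% and 2.65% in plasmablasts, so that most of the gain lay between 33 h and day 4. Ighv6-6 had a ratio of 2.17, Ighv2-9 of 2.31 and Ighv6-3 of 1.92. The lowest ratio was that of Ighv8-6, 0.180, a segment with under 0.04% of Ighv counts in every library. Among segments with at least 1% of Ighv counts in a library the lowest was that of Ighv1-50, 0.505, from a mean of 2.56% to 1.29%.

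The leading segment was the same throughout, and the next after it per kilobase of exon was another on day 4 than in any earlier library. Ighv1-26 took 6.90% and 6.54% of Ighv counts in naive libraries, 7.91% and 7.23% at 3 h, 5.30% and 5.21% in expanded cells and 5.95% and 5.53% in plasmablasts, and it led in all 12 libraries, also per kilobase of exon. Ighv1-72 took 2.55% and 2.34% in naive libraries, 4.64% and 4.72% in expanded cells and 3.93% and 4.41% in plasmablasts. Per kilobase Ighv1-72 was next after Ighv1-26 in all 4 libraries of day 4 and in no earlier library. Before day 4 that place was held by Ighv1-9, Ighv3-6 or Ighv1-64. The counts of Ighv1-72 carry the uncertainty given above for near-identical segments.

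Some segments were highest in share in expanded cells. Ighv1-81 took 1.69% and 1.68% in naive libraries, 0.988% and 0.989% at 3 h, 2.51% and 2.64% in expanded cells and 1.78% and 1.63% in plasmablasts. Ighv14-4 showed the reverse, with 1.14% and 1.13% in naive libraries, 0.355% and 0.364% in expanded cells and 0.866% and 0.664% in plasmablasts. Expanded cells and plasmablasts came from cultures of the same length, and differed in the sort on CD22 and CD138.

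**Figure D4:**
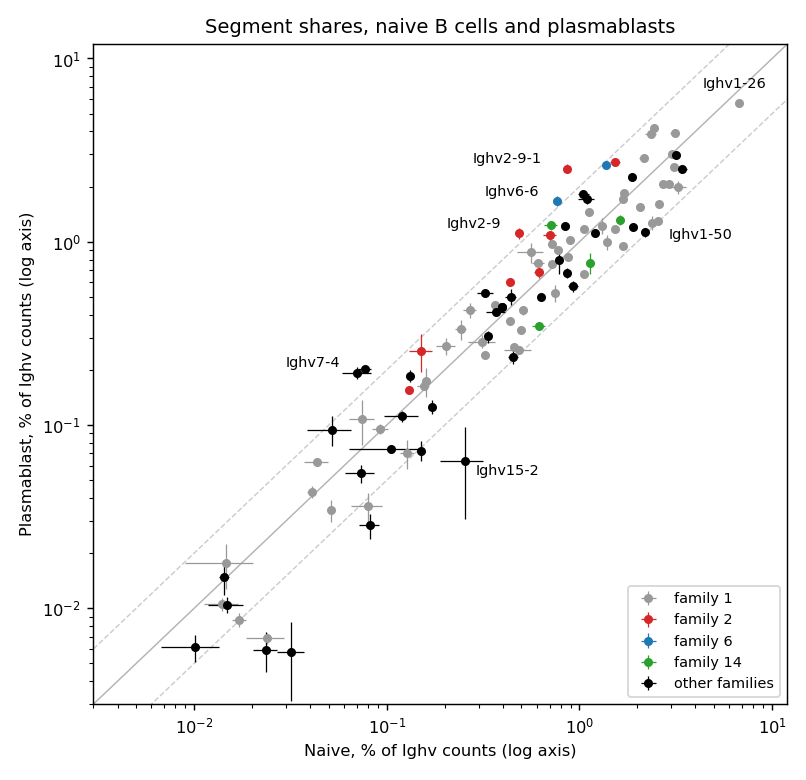
Mean share of Ighv counts of 105 segments in naive B cells and plasmablasts, on log axes, with bars to the values of the 2 replicates. The solid line marks equal shares and the dashed lines a ratio of 2 in either direction. Ighv2-9-1, Ighv6-6 and Ighv2-9 lie above the upper line, and Ighv15-2 (0.253) lies below the lower one.

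Segments known from particular B cell populations were followed by name. Ighv11-1, Ighv11-2 and Ighv12-3 are known from B-1 cells, whose receptors often bind phosphatidylcholine. Ighv11-2 took 0.0856% and 0.0607% of Ighv counts in naive libraries and 0.0484% and 0.0605% in plasmablasts, and Ighv12-3 took 0.0638% and 0.146%, then 0.0741% and 0.0730%. Both overlapped or nearly met between these stages. Both rose in level with the other segments, by 2.75 ± 0.26 and 2.73 ± 0.37 on the log2 scale (adjusted p = 2.36e-06 and 7.1e-05, edgeR glmTreat). Ighv11-1 took 0.0202% and 0.0270% of Ighv counts in naive libraries and 0.00739% and 0.00446% in plasmablasts, 0.251 of the naive mean, and the stages did not overlap. It had 12 counts in each naive library and never reached 1.2 CPM, and its level did not pass the test (1.22 ± 0.44; adjusted p = 0.0733, edgeR glmTreat).

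Ighv5-2 lies at the D-proximal end of the locus and is rearranged often in fetal life. It took 0.151% of Ighv counts in both naive libraries and 0.0634% and 0.0815% in plasmablasts. In level it rose by 2.14 ± 0.19 on the log2 scale from naive cells to plasmablasts (adjusted p = 1.91e-06, edgeR glmTreat), less than the median segment. Ighv1-53 took 2.50% and 2.19% in naive libraries and 3.83% and 3.87% in plasmablasts.

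Usage was about as even at every stage. Evenness was measured as the effective number of segments, the number of equally used segments that would give the same Shannon entropy. It was 61.3 in both naive libraries, 59.8 and 61.3 at 3 h, 61.8 and 61.9 at 10 h, and 60.5 and 59.7 at 33 h. It was 60.5 and 59.8 in expanded cells and 61.4 and 61.6 in plasmablasts. The range over all 12 libraries was 59.7 to 61.9, of which the 3 h replicates alone spanned 59.8 to 61.3. The 10 leading segments held 33.5% to 35.2% of Ighv counts in every library, and 17 or 18 segments were enough for 50% of them.

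Which segments made up this even usage shifted with the stage. The usage distance, the part of Ighv counts that would have to be moved to another segment to turn one library's usage into another's, was 3.66% to 5.16% between replicates. From naive libraries it was 8.19% on average to the 3 h libraries, 7.69% to 10 h, 10.1% to 33 h, 16.8% to expanded cells and 16.9% to plasmablasts. Expanded cells and plasmablasts were 7.84% apart, nearer to each other than either was to any earlier stage. Ranks were kept for the most part, with Spearman's rho of 0.952 to 0.996 over the 120 segments in any pair of libraries, which is a description across segments.

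**Figure D5:**
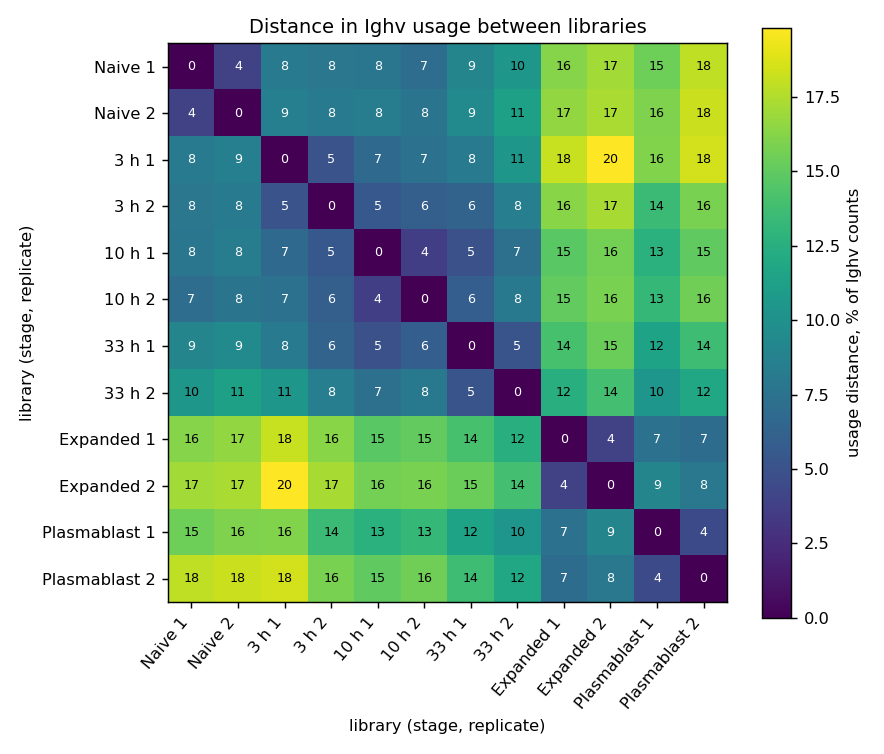
Usage distance between each pair of the 12 libraries, in percent of Ighv counts, with the rounded value in each cell. Replicates lie 3.66% to 5.16% apart. The 4 libraries of day 4 lie at most 9.03% from each other and at least 10.4% from the 8 earlier ones, which lie up to 11.3% apart.

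The position of a segment in the locus was set against its change in share. Over the 105 segments, Spearman's rho of position with the ratio of plasmablast to naive share was -0.11, across segments of shared libraries. Within family 1 it was 0.16 over 55 segments. From naive to 3 h it was -0.15 over 97 segments and 0.38 over the 52 of family 1, and from expanded cells to plasmablasts -0.17 over 109 and 0.25 over 56, so that the sign differed between family 1 and all segments. In bins of 0.5 Mb from the D-proximal end, the 28 segments of the bin nearest the D segments took 16.5% ± 0.4 (SD, n = 2) of Ighv counts in naive cells and 19.9% ± 0.7 in plasmablasts. That bin holds all 9 segments of family 2. The middle bin of 25 segments took 23.7% ± 0.7 and 20.2% ± 0.5. The bin between these went from 17.8% ± 0.5 to 19.8% ± 0.03. Beyond the middle bin, the next went from 20.8% ± 0.3 to 17.9% ± 0.2, and the most distal from 21.2% ± 0.5 to 22.1% ± 0.4. Gains were thus not confined to the D-proximal end.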

How the data were processed

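The authors aligned paired 81-base reads of poly(A) RNA to mm10 with Rsubread and deposited counts per Entrez gene from featureCounts, unnormalized and unfiltered. The 12 single-sample files held the same counts as the series table. IDs were matched to a RefSeq table of GRCm38 (25275 of 27179), from which symbols and positions were taken. Mitochondrial, ribosomal RNA, X, Y and unmatched genes were removed after the study's methods, while variable immunoglobulin segments, which the study left out, were kept. R 4.3.3 was used with edgeR 4.0.16 and DESeq2 1.42.0: filterByExpr, TMM, robust quasi-likelihood dispersions in a one-way layout of all 12 libraries, and glmTreat beyond 1.5-fold with Benjamini-Hochberg adjustment at 0.05 over all genes tested. The fit was tested on simulated data. CPM were computed from the counts with TMM-scaled library sizes, and marker sums from library totals.

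Segments were named if they were among the 15 with the highest mean share, among the 3 called segments with the largest rise or fall in a comparison (at least 1% of Ighv counts in a library), or known from B-1 cells or particular responses. Further segments named were chosen after their values were seen. The members, lists and tests were chosen with earlier results of these data known. Alternatives were other scalings, tests, filters and left-out libraries. One surface marker of the gates is not reported here.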

Additional observations from a re-analysis of the deposited data

How the results depend on the processing

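Of 1326 recomputed log2 fold changes of single segments, which cover the calls of named segments and the further values given above, 1263 kept their direction and their side of the threshold and 9 changed sign. The 9 were all of Ighv6-6 from naive to 3 h, which was close to 0. It was -0.018 with DESeq2 size factors, -0.22 with library size alone, -0.014 with DESeq2, -0.016 without the filter on low counts, -0.014 with the removed genes kept, -0.00011 with the newer quasi-likelihood method, -0.019 with only the 4 libraries compared, and -0.086 to 0.080 without 1 library, below 0 without replicate 1 at 3 h or replicate 2 of the naive cells. The fit with the replicate number as a block (replicate block) called 53 segments down from naive to 3 h and 10, 86, 106 and 107 up at 10 to 33 h, 33 h to expanded, expanded to plasmablast and naive to plasmablast, against 53, 9, 86, 106 and 107 without it, and it changed no other count of calls. Deviations of same-numbered libraries from their stage means correlated at -0.136 to 0.0873 over 15 pairs of stages across all genes, and at -0.198 to 0.296 across the Ighv segments, so the numbers were not taken to pair the libraries. With library size alone as the scaling, the median of all genes moved to -0.26, 0.35, -0.43 and -0.31 (naive to 3 h, 3 to 10 h, expanded to plasmablast and naive to plasmablast), and the share of rises among all calls from 46.7%, 56.4%, 55.7% and 54.2% to 35.3%, 77.4%, 28.2% and 40.1%. The log2 ratios of the Ighv sum were then -1.13, 0.45, 1.36 and 2.86, and 2 segments were called up from 3 to 10 h and 4 from 10 to 33 h.

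The F-test without a fold threshold called 81 segments down from naive to 3 h, 7 up and 2 down from 3 to 10 h, and 61 up and 1 down from 10 to 33 h. DESeq2 called 1 down from 3 to 10 h and 52 up from 10 to 33 h. The last count was 20 without the filter on low counts, 5 with the removed genes kept and 5 with only the 4 libraries compared. Leaving out 1 library at a time gave 31 to 53 falls from naive to 3 h, and 0 to 1, 1 to 29, 70 to 85, 101 to 106 and 105 to 110 rises from 3 to 10 h, 10 to 33 h, 33 h to expanded, expanded to plasmablast and naive to plasmablast, and it gave 0 rises from naive to 3 h and 0 falls elsewhere. The lone library of a stage was then taken to vary like the others. The log2 ratio of the sum ranged from -1.04 to -0.79, -0.0073 to 0.24, 0.45 to 0.87, 1.37 to 1.801, 1.67 to 1.84 and 3.17 to 3.24 over the 6 comparisons in turn, so that the change from 3 to 10 h reversed without replicate 2 of the 3 h stage. The cause of these shifts was not tested.

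Single libraries gave Ighv shares of 0.149% to 0.155%, 0.0672% to 0.0778%, 0.0997% to 0.0999%, 0.130% to 0.178%, 0.429% to 0.481% and 1.13% to 1.22% in stage order, effective numbers of 61.26 to 61.32, 59.8 to 61.3, 61.8 to 61.9, 59.7 to 60.5, 59.8 to 60.5 and 61.4 to 61.6, and family 1 shares of 64.2% to 65.4%, 61.1% to 62.4%, 61.8% to 62.1%, 62.0% to 62.1%, 63.2% to 64.6% and 59.8% to 60.8%. Without mitochondrial counts the Ighv share was 0.171% in naive cells, 0.106% at 10 h and 1.24% in plasmablasts. The effective number was 61.2, 61.6 and 61.4 in naive cells, 10 h and plasmablasts when thinned to the smallest Ighv total, and 60.8, 61.3 and 61.2 per kilobase. In stage order it was 59.98, 59.4, 60.3, 58.9, 58.9 and 60.2 over segments with at least 10 counts everywhere, and 45.9, 44.2, 45.1, 44.7, 46.0 and 46.9 as the inverse Simpson index. Over segments with at least 90% unique windows, a choice made after seeing the data, it was 46.2, 46.5, 47.4, 45.3, 44.9 and 46.4, and family 1 took 52.7%, 48.4%, 49.7%, 49.3%, 52.3% and 48.0%. Per kilobase family 1 took 62.6%, 62.8%, 62.9% and 61.2% at 3, 10 and 33 h and in plasmablasts. Segments with few counts limit the ratios of rare families, and 2 libraries a stage limit every comparison.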
